A study of Mus musculus with 2 samples.

Results

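The genes described are 7 markers of alveolar type 1 cells: Ager, Hopx, Pdpn, Emp2, Rtkn2, Akap5 and Clic5. They were taken by symbol from the 22072 gene symbols of the deposited tables, and all 7 were found. The measurements come from whole-lung RNA of C57/BL6 mice of 2 genotypes. The knockout (KO) mice were labelled Pdgfb-iCreER / FoxF1 fl/fl, that is, homozygous floxed Foxf1 together with a Cre recombinase that is activated by tamoxifen and is driven by Pdgfb, a gene expressed in endothelium. The control mice were labelled Foxf1 fl/fl and carried the same floxed alleles without Cre. RNA from several mice was pooled per genotype, so each group is 1 library, and no source used here gives the age or number of mice or the tamoxifen schedule. Because the control mice had no Cre, effects of Cre itself and of lost Foxf1 cannot be told apart. With 1 library per genotype no test was possible, and each difference below compares these libraries without a replicate check.

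Alveolar type 1 cells are thin, flat epithelial cells that cover most of the gas exchange surface and lie against the capillary endothelium. They can arise from alveolar type 2 cells, the makers of surfactant. The coactivators YAP and TAZ, which bind DNA through TEAD factors, and the homeodomain factor NKX2-1 are known to control the identity of type 1 cells. Of the 7 genes, Ager encodes the receptor RAGE, which binds HMGB1 and S100 proteins. Pdpn encodes podoplanin, a mucin-like membrane glycoprotein also made by lymphatic endothelium and mesothelium. Emp2 encodes a membrane protein of the PMP22 family with 4 spans, Clic5 a chloride intracellular channel protein bound to the actin cortex, Akap5 an anchor of protein kinase A, Rtkn2 the signalling protein rhotekin 2, and Hopx a small homeodomain protein that does not bind DNA.

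Levels are in FPKM (fragments relative to the length of a transcript and the total mapped in its library), summed over the records of a symbol. Log2 ratios are log2(FPKM + 1) in the KO pool minus that in the control pool, whereas folds of single genes are plain FPKM ratios, each followed in brackets by an approximate 95% interval for counting error alone. By an estimate from the coverage, 10.4 M reads fell on transcripts in the KO library and 13.2 M in the control library. Foxf1, listed as Foxf1a, had 15.7 FPKM in the KO pool and 72.1 FPKM in the control pool, 4.59-fold lower in the KO pool (3.96 to 5.33). Sftpc, the surfactant gene that marks lung tissue, had 13793 FPKM in the KO pool and 15925 FPKM in the control pool. A whole-lung value cannot tell fewer cells of a type from less RNA per cell.

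Of the 7 genes, 6 had a lower level in the KO pool and Pdpn had a higher one. Their log2 ratios ran from -0.70 for Rtkn2 to 0.35 for Pdpn, with a median of -0.57, against a median of 0.05 over the 12929 genes with a mean of at least 1 FPKM. The quartiles of those genes were -0.16 and 0.28. Of all genes, 43.2% were below equality and 56.8% above it. All 7 genes were above the 1 FPKM minimum in each pool. Counted at 1.5-fold or more on the scale of log2(FPKM + 1), 3 of the 7 were lower in the KO pool (Emp2, Rtkn2 and Clic5), where 4.63% of all genes were, and 0 of the 7 were higher, where 9.41% of all genes were. None of the 7 reached a fold of 2, which 1.25% of all genes did in the lower direction and 3.75% in the higher.

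**Figure D1:**
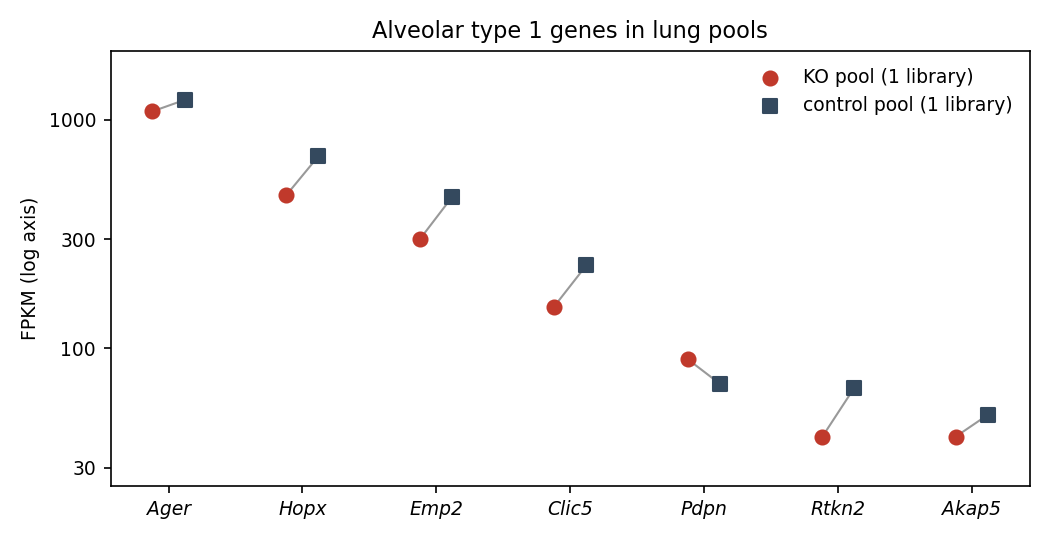
Level in FPKM (log axis) of each of the 7 alveolar type 1 genes in the KO pool (circles) and the control pool (squares), 1 library each and so without error bars. Lines join the values of a gene: the KO pool lies below the control pool for 6 genes and above it for Pdpn, at 89.2 against 69.6 FPKM.

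The receptor gene Ager was the most abundant of the 7, at 1086 FPKM in the KO pool and 1218 FPKM in the control pool. It ranked 16 in the KO pool and 12 in the control pool among all symbols. The KO level was 1.12-fold lower (1.10 to 1.14), from about 18989 reads in the KO library and 27501 in the control library, and 24.2% of all genes had a log2 ratio as low or lower. The single deposited Ager record, NM_007425, has 1370 bases on chromosome 17 from 34734807 to 34737877 (mm9), so soluble and membrane splice forms of RAGE were not separated. Among the known ligands of RAGE, Hmgb1 had 155 FPKM in the KO pool and 136 FPKM in the control pool, 1.14-fold higher in the KO pool (1.10 to 1.19). The calcium-binding neutrophil proteins S100a8 and S100a9 are ligands as well. S100a9 was 1.60-fold higher in the KO pool (1.30 to 1.96), with 34.7 FPKM in the KO pool and 21.7 FPKM in the control pool, and S100a8 was 1.41-fold higher (1.14 to 1.76). These ligand genes lay above equality and Ager below it. Hmgb1 and S100a8 were chosen after their values were seen.

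The membrane and actin cortex genes Emp2 and Clic5 had nearly the same ratio. Emp2 had 301 FPKM in the KO pool and 460 FPKM in the control pool, 1.53-fold lower in the KO pool (1.5 to 1.56). Its record, NM_007929, has 3440 bases on chromosome 16 from 10281842 to 10314061. Clic5 had 152 FPKM in the KO pool and 230 FPKM in the control pool, 1.51-fold lower in the KO pool (1.48 to 1.55), from 1 record of 5870 bases, NM_172621, on chromosome 17 from 44325521 to 44417117. Of all genes, 4.25% had a log2 ratio as low as that of Emp2 or lower, and 4.48% as low as that of Clic5. Emp2 is also expressed by aerocytes, the capillary endothelial cells of gas exchange. Of 10 aerocyte markers, 8 were lower in the KO pool, 6 of them by at least 1.5-fold. Among all genes, 43.2% were lower and 4.63% were lower by at least 1.5-fold. The median log2 ratio of the 10 markers was -1.42. Their summed level was 941 FPKM in the KO pool and 1257 FPKM in the control pool, with none at 0. On the log2(FPKM + 1) scale the lowest of them was Fibin, 5.28-fold lower (4.58 to 6.11), and the highest was the VEGF receptor gene Kdr, 1.56-fold higher (1.51 to 1.62). The part of these cells in the Emp2 value was not tested.

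Relatives of Emp2 and Clic5 did not all have the direction of these genes. Emp1, a close family member of Emp2, had 310 FPKM in the KO pool and 124 FPKM in the control pool, 2.51-fold higher in the KO pool (2.43 to 2.59). Of all genes, 2.24% had a log2 ratio as high as that of Emp1 or higher. The level of Emp2 was 0.971 times that of Emp1 in the KO pool and 3.72 times in the control pool. Emp3 was likewise 1.58-fold higher in the KO pool (1.39 to 1.81), and Pmp22, the myelin protein gene that names the family, was 1.10-fold lower (1.06 to 1.13). Among the chloride intracellular channel genes, Clic1 was 1.64-fold higher in the KO pool (1.54 to 1.74), with 150 FPKM in the KO pool and 91.7 FPKM in the control pool. Clic4 was 1.16-fold lower (1.14 to 1.19) and Clic6 1.20-fold lower (1.01 to 1.43). The interval of Clic3, at 115 FPKM in the KO pool and 121 FPKM in the control pool, included equality. Clic5 was thus 1.02 times as abundant as Clic1 in the KO pool and 2.51 times in the control pool. Over the 14 relatives listed for the 7 genes, which include other kinase anchor genes and immunoglobulin adhesion genes, the median log2 ratio was -0.11. Of these 14, 0 were at least 1.5-fold lower and 3 at least 1.5-fold higher (Emp1, Emp3 and Clic1), against 4.63% and 9.41% of all genes. The adhesion gene Alcam was the lowest of the 14, 1.27-fold lower (1.22 to 1.31). The other adhesion genes went the other way: Mcam was 1.46-fold higher (1.40 to 1.52) and Bcam 1.08-fold higher (1.05 to 1.11). Ezr and Rdx encode ezrin and radixin, which link membrane proteins such as CLIC5 and podoplanin to actin. Ezr was 1.11-fold higher in the KO pool (1.06 to 1.17) and Rdx 1.08-fold lower (1.04 to 1.13), while Msn, the moesin gene, was the most abundant of the 3 and was 1.09-fold higher (1.06 to 1.11). Ezr and Rdx were chosen after their values were seen.

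**Figure D2:**
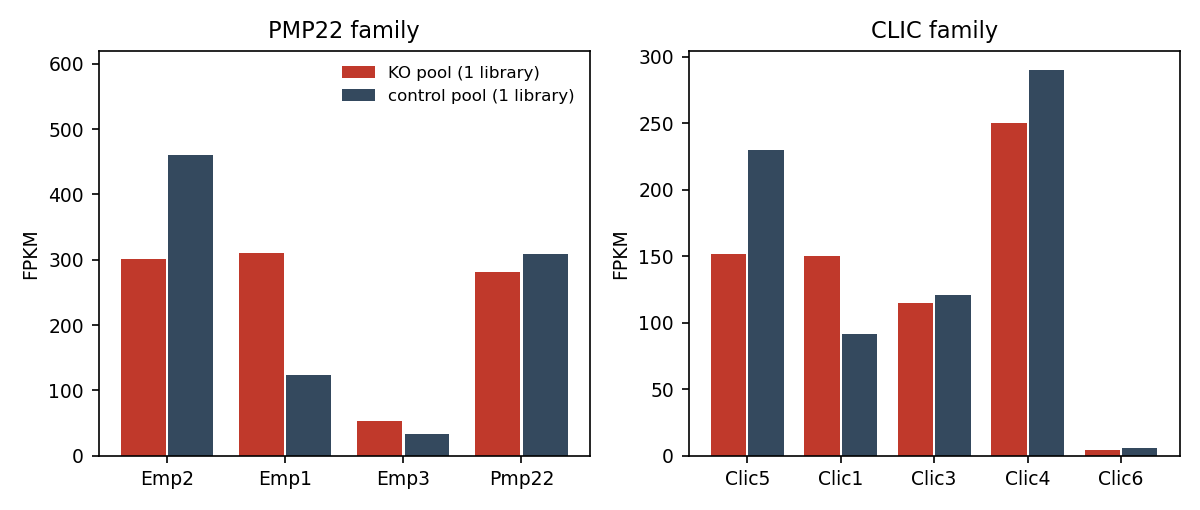
Level in FPKM of Emp2 and its relatives (left) and of Clic5 and its relatives (right) in the KO pool (red) and the control pool (dark blue), with 1 library per bar and no error bars. Emp2 and Clic5 are lower in the KO pool, Emp1, Emp3 and Clic1 are higher in it, and Emp1 stands at 310 FPKM in the KO pool beside 301 FPKM for Emp2.

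The signalling gene Rtkn2 had the lowest ratio of the 7. It had 40.7 FPKM in the KO pool and 66.8 FPKM in the control pool, 1.64-fold lower in the KO pool (1.56 to 1.73), and 3.09% of all genes had a log2 ratio as low or lower. Its record, NM_001081346, has 3932 bases on chromosome 10 from 67442346 to 67506612. Rtkn, its relative, was 1.15-fold lower in the KO pool (1.01 to 1.32), at 12.1 FPKM in the KO pool and 14 FPKM in the control pool. The kinase anchor gene Akap5 had 41.0 FPKM in the KO pool and 51.1 FPKM in the control pool, 1.24-fold lower in the KO pool (1.19 to 1.30). Its record, NM_001101471, has 6685 bases on chromosome 12 from 77425878 to 77435138. Among other anchors, Akap13 was 1.18-fold lower (1.13 to 1.24), an interval that overlapped that of Akap5. Akap12 was 1.15-fold higher (1.08 to 1.23), and the interval of Akap1 included equality. Over the 20 ligand, partner and anchor genes above the 1 FPKM minimum the median log2 ratio was 0.11. Of these 20, 13 were above equality, where 56.8% of all genes were, and 7 were below it. S100a9 alone was past 1.5-fold on the log2(FPKM + 1) scale. The most abundant of the 20 besides Msn was the tetraspanin gene Cd9, at 335 FPKM in the KO pool and 338 FPKM in the control pool.

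Pdpn was alone among the 7 in having a higher level in the KO pool, at 89.2 FPKM in the KO pool and 69.6 FPKM in the control pool, 1.28-fold higher (1.20 to 1.36). A log2 ratio as high or higher was found for 19.2% of all genes. Its record, NM_010329, has 1769 bases on chromosome 4 from 142857325 to 142889410. Mesothelial cells, which also make podoplanin, had 7 markers on the list, of which 6 were above equality, where 56.8% of all genes were. The median log2 ratio of the 7 markers was 0.51. Their summed level was 262 FPKM in the KO pool and 171 FPKM in the control pool, and none was at 0. The most abundant of them was the keratin gene Krt19, at 136 FPKM in the KO pool and 80.2 FPKM in the control pool. Krt19 is also on the list of transitional genes described below, so the sum is not of mesothelial RNA alone. Lrrn4 was the highest of them, 2.0-fold higher (1.70 to 2.35), and Msln, which encodes mesothelin, was 1.69-fold higher (1.55 to 1.85). Of 6 lymphatic endothelial markers, 3 were above the 1 FPKM minimum, Ccl21a was listed at 0 in both pools and the defining factor gene Prox1 had 0.341 FPKM in the KO pool and 0.265 FPKM in the control pool. The lymphatic list summed to 56.4 FPKM in the KO pool and 213 FPKM in the control pool, most of it Lyve1, which had 33 FPKM in the KO pool and 194 FPKM in the control pool. The median log2 ratio of the 3 was -0.16. The receptor gene Flt4 was 1.51-fold higher in the KO pool (1.39 to 1.64), at 16.6 FPKM in the KO pool and 11 FPKM in the control pool, and the interval of Mmrn1, at 5.68 FPKM in the KO pool and 6.49 FPKM in the control pool, included equality. The cells that expressed Lyve1 and Flt4 were not identified, so the lymphatic sum does not measure lymphatic cells alone. The part of mesothelial or lymphatic cells in the Pdpn value was not tested. Clec1b, the platelet receptor gene for podoplanin, was near the minimum, at 2.69 FPKM in the KO pool and 3.6 FPKM in the control pool, an interval that included equality. Prox1, Mmrn1 and Clec1b were chosen after their values were seen.

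Hopx was the second most abundant of the 7, at 467 FPKM in the KO pool and 692 FPKM in the control pool, 1.48-fold lower in the KO pool (1.44 to 1.53). It was the only one of the 7 with more than 1 record, and all 3 records had a lower level in the KO pool. NM_001159900 had 282 FPKM in the KO pool and 444 FPKM in the control pool, 1.57-fold lower (1.51 to 1.64). NM_175606, which begins at a more distant start, had 179 FPKM in the KO pool and 238 FPKM in the control pool, 1.33-fold lower (1.27 to 1.39). The minor record NM_001159901 had 5.6 FPKM in the KO pool and 10.6 FPKM in the control pool. The distant start therefore made up 38.4% of Hopx FPKM in the KO pool and 34.4% in the control pool. The counting intervals of the main records did not overlap, but they leave out the error of dividing reads between records that share exons. The gene spans chromosome 5 from 77516011 to 77544148 (mm9), and the records of the near start end at 77524292.

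**Figure D3:**
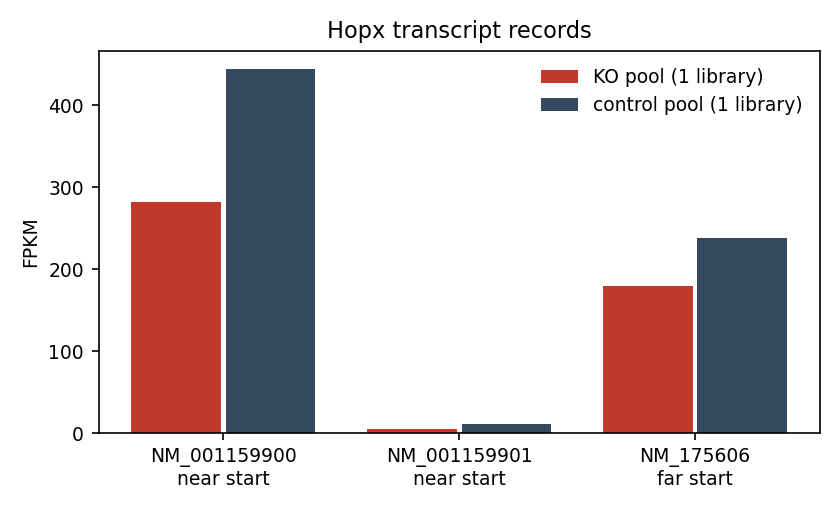
Level in FPKM of the 3 deposited Hopx records in the KO pool (red) and the control pool (dark blue), with 1 library per bar and no error bars. Each record is lower in the KO pool, and the record of the far start, at 179 against 238 FPKM, differs less than the main record of the near start, at 282 against 444 FPKM.

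Promoter windows (250 bases before and 50 after a start, from RefSeq on GRCm38.p6) were found for 6 of the 7 genes, with 1 window for each of the 2 Hopx starts. Rtkn2 had none. The letters searched on both strands were GGAATG for TEAD factors, TGTTTAC for forkhead factors and CAAGTG for NKX2 factors, and none of these overlaps another in the windows. Of 32851 windows of the same length, 14.7% held the TEAD letters, 3.65% the forkhead letters and 13.6% the NKX2 letters. The forkhead letters were found once in the 7 windows, 153 bases before the start of Pdpn. The NKX2 letters were found once, 35 bases after the near start of Hopx, and the TEAD letters were found in none of the windows. A match describes letters only. The bases before the start are shown for Pdpn, the gene with the higher level in the KO pool, and for both Hopx starts, whose records differed in ratio. Capitals mark the forkhead letters. Each is given 5′ to 3′ on the minus strand, for Pdpn from chr4:143299565-143299814, for the near Hopx start from chr5:77095268-77095517 and for the far one from chr5:77115124-77115373.
Pdpn: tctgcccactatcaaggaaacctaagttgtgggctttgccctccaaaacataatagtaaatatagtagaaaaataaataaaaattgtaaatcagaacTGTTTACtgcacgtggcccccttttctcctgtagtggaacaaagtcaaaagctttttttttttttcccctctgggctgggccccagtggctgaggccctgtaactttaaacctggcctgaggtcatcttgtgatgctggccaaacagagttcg
Hopx near start: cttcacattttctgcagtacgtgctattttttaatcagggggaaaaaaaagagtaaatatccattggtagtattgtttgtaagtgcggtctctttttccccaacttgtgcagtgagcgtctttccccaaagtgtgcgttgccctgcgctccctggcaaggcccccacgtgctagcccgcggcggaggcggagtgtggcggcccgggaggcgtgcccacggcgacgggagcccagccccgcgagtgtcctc
Hopx far start: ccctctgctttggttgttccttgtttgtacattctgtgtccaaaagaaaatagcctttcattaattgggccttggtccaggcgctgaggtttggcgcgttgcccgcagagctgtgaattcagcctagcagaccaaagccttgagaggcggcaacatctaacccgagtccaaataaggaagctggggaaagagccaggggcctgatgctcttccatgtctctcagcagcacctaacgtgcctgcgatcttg
The near Hopx window had 21 CpG dinucleotides and the far one 8, at a GC content of 59.0% in the near window and 53.0% in the far one. The Pdpn window had 7 CpG, the median of all windows, and the Ager window, with 4, had the fewest of the 7, whereas Akap5, with 27, had the most.

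Other genes of the alveolar type 1 cell were spread to both sides of equality. Of 24 further markers, all above the 1 FPKM minimum, 4 were at least 1.5-fold lower in the KO pool, where 4.63% of all genes were. A further 3 were at least 1.5-fold higher, where 9.41% of all genes were, and 17 were within 1.5-fold. The median log2 ratio of the 24 was -0.12. The lowest was Cyp2b10, a cytochrome P450 gene, 2.36-fold lower (2.25 to 2.49), with 83.2 FPKM in the KO pool and 197 FPKM in the control pool. The other lower ones were the caveolin gene Cav2 at 1.91-fold (1.84 to 1.98), Lmo7, which encodes a junction protein, at 1.66-fold (1.60 to 1.72) and Gramd2 at 1.53-fold (1.38 to 1.70). Cav1, the most abundant of the 24, was 1.43-fold lower (1.40 to 1.46), and the caveolin genes are strongly expressed in endothelium as well. The higher ones were S100a14 at 2.63-fold (1.94 to 3.57), Igfbp2, which encodes an insulin-like growth factor binding protein of mature type 1 cells, at 1.73-fold (1.66 to 1.81), and the keratin gene Krt7 at 1.58-fold (1.52 to 1.65). Timp3, a metalloproteinase inhibitor gene, was 1.18-fold higher (1.16 to 1.20). Aqp5, the water channel gene of type 1 cells, had 180 FPKM in the KO pool and 169 FPKM in the control pool. Cav2, Lmo7, Igfbp2, Krt7 and Aqp5 were chosen after their values were seen. By the absolute difference of log2 ratios over the 2 libraries, the genes closest to the median of the 7 among 56 epithelial candidates were Sftpa1 (-0.58), a surfactant protein gene of type 2 cells, Gramd2 (-0.60) and Cav1 (-0.51), a likeness that rests on a single ratio per gene.

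**Figure D4:**
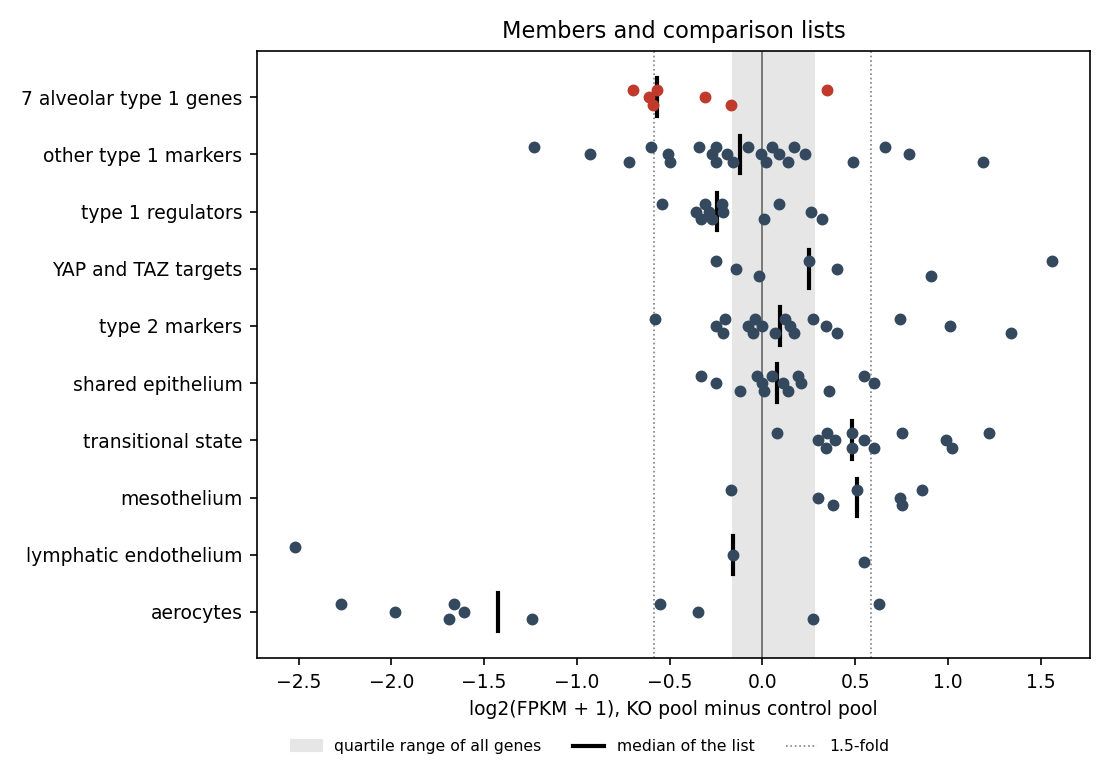
Log2(FPKM + 1) of the KO pool minus that of the control pool for each gene with a mean of at least 1 FPKM (points, spread vertically for legibility) in the 7 alveolar type 1 genes (red) and in comparison lists (dark blue), with the median of each list (black bar). The 7 genes have a median of -0.57, below the range between the quartiles of all genes (grey, -0.16 to 0.28), while the transitional list has a median of 0.48.

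Genes shared by lung epithelium lay near equality. Over 14 such markers the median log2 ratio was 0.08, with 1 past a fold of 1.5, the keratin gene Krt18. Cldn18, a claudin gene of alveolar epithelium, had 245 FPKM in the KO pool and 244 FPKM in the control pool, and Cdh1, which encodes E-cadherin, had 73.6 FPKM in the KO pool and 73.8 FPKM in the control pool. Set against Cdh1 within each library, which takes out the scaling of a library, Hopx stood at 6.34 times Cdh1 in the KO pool and 9.38 times in the control pool, Emp2 at 4.09 times in the KO pool and 6.23 times in the control pool, and Pdpn at 1.21 times in the KO pool and 0.942 times in the control pool. Against Sftpc, the type 2 marker, Ager stood at 0.0788 times in the KO pool and 0.0765 times in the control pool. This ratio was 1.03 times as high in the KO pool, whereas that of Hopx was 0.78 times as high and that of Rtkn2 0.70 times. Sftpc was itself 1.15-fold lower in the KO pool (1.15 to 1.16). Against the shared markers Cdh1, Cldn18 and Epcam, the ratio of Ager was 0.89, 0.89 and 0.81 times as high in the KO pool. Cdh1 and Epcam were chosen after their values were seen. Over 18 type 2 markers the median log2 ratio was 0.10. Of these 18, 0 were at least 1.5-fold lower and 3 at least 1.5-fold higher, against 4.63% and 9.41% of all genes. The type 2 markers ranged from Sftpa1, 1.49-fold lower (1.47 to 1.51), to the desaturase gene Scd1, 2.53-fold higher (2.49 to 2.58).

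Genes of the transitional state that type 2 cells pass through on the way to type 1 cells had a median log2 ratio of 0.48. They were above equality in 13 of 13 cases, where 56.8% of all genes were. In the KO pool 5 of them were at least 1.5-fold higher, where 9.41% of all genes were. Hbegf, an EGF receptor ligand gene, was the highest, with 43.0 FPKM in the KO pool and 17.9 FPKM in the control pool, 2.40-fold higher (2.19 to 2.64). The others past this fold were Sfn, which encodes the cell cycle regulator stratifin, at 2.15-fold (1.82 to 2.56), the integrin gene Itgb6 at 2.11-fold (1.90 to 2.33), the keratin gene Krt19 at 1.69-fold (1.59 to 1.80) and Krt18 at 1.53-fold (1.40 to 1.67). Cdkn1a, a cell cycle inhibitor gene, was the lowest, and its interval of 0.98 to 1.13 included equality, as did that of the claudin gene Cldn4, at 0.96 to 2.09. The most abundant were the annexin gene Anxa1, 1.32-fold higher (1.25 to 1.38), and the chaperone gene Clu, 1.28-fold higher (1.22 to 1.35). Krt19 is also a mesothelial marker, and Krt8 and Krt18 are also on the list of shared epithelial markers. Most of the 13 genes are expressed outside the alveolus, so the cells in which they were higher were not identified. Sfn, Itgb6, Krt18, Krt19 and Cldn4 were chosen after their values were seen.

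Of 12 transcription regulators linked to type 1 cells, 8 had a lower level in the KO pool, where 43.2% of all genes did. None of the 12 differed by 1.5-fold, and their median log2 ratio was -0.24. Foxa2, a forkhead factor gene of lung epithelium, was the lowest at 1.49-fold lower (1.32 to 1.68). Nkx2-1 had 84.0 FPKM in the KO pool and 106 FPKM in the control pool, 1.26-fold lower in the KO pool (1.20 to 1.32). Wwtr1, which encodes TAZ, was 1.06-fold higher (1.01 to 1.12), and Tead2 was the highest at 1.28-fold higher (1.09 to 1.5). Yap1, chosen after its values were seen, was 1.21-fold lower (1.14 to 1.29). Of 8 YAP and TAZ target genes, 7 were in the tables under the symbol searched, with a median log2 ratio of 0.25. Of these 7, 2 were at least 1.5-fold higher and 0 at least 1.5-fold lower, against 9.41% and 4.63% of all genes. Ankrd1, a classical YAP target, was the highest at 3.26-fold higher (2.74 to 3.87), with 20.9 FPKM in the KO pool and 6.42 FPKM in the control pool, and Cyr61, a matricellular protein gene, was 1.90-fold higher (1.78 to 2.03). Ctgf was 1.19-fold higher (1.13 to 1.26), and Amotl2, which encodes a YAP-binding protein, was the lowest at 1.19-fold lower (1.13 to 1.26). Over 12 markers shared by endothelium, the cells in which this Cre is active, the median log2 ratio was 0.07. Of these 12, 3 were at least 1.5-fold lower and 1 at least 1.5-fold higher, against 4.63% and 9.41% of all genes. They ranged from the receptor gene Calcrl, 3.06-fold lower (2.97 to 3.14), to Emcn, 5.11-fold higher (4.70 to 5.55).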

How the data were processed

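RNA of whole lungs was sequenced, 1 pooled library per genotype. The authors deposited FPKM values and, per the file headers, coverage signal and length for 28107 RefSeq transcripts per library, and coverage was a constant multiple of FPKM. The submitters' processing notes name the build mm9; no source used here names the aligner or the quantifier. FPKM depends on the library total, and strand handling is not given. No other gene in the tables overlapped the 7. FPKM was summed per symbol in Python 3.11.15 with pandas 2.3.3 and SciPy 1.17.1. Log2 ratios used a pseudocount of 1, which understates low genes, and a minimum mean of 1 FPKM. Reads were estimated as coverage times length over the bases that 1 read adds (47.6 in the KO library, 47.5 in the control library), the median between 35 and 65 bases over genes with 1 record. From them came exact conditional (Clopper-Pearson) 95% intervals of FPKM ratios, checked on simulated data. They cover counting error only, leaving out mice, pools and library preparation. Groups came from the labels. No p-values were computed. The members, the 12 comparison lists and the named genes (of each list the genes with the extreme ratios and the 2 most abundant, all relatives of a member, and exceptions stated beside them) were chosen with earlier results of these data known. Starts are counted from 1. Alternatives concerned the pseudocount, the minimum, the scaling, the records used and the fold. Protein sequences were not used here.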

Additional observations from a re-analysis of the deposited data

How the results depend on the processing

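Each of the 7 genes kept its direction under all 7 alternatives tried for single genes, though few of these could have changed it. A pseudocount cannot turn a direction, and the choice of records changed only Hopx. The scalings below multiplied KO values by 0.958, 0.958 and 0.945 in the order given. They could not turn a gene that was lower in the KO pool. Nor were they large enough to turn Pdpn, which was 1.28-fold higher. Log2 ratios ran from -0.25 to -0.17 for Ager, -0.65 to -0.57 for Hopx, -0.69 to -0.61 for Emp2 and -0.67 to -0.59 for Clic5. They ran from -0.78 to -0.68 for Rtkn2, -0.39 to -0.30 for Akap5 and 0.27 to 0.36 for Pdpn. The median of the 7 was -0.63 after rescaling to a median log2 ratio of 0, -0.63 with upper-quartile scaling and -0.65 when scaled without the 50 most abundant genes, each of which lowers all KO values alike. Under these scalings, and with the most abundant transcript only, 4 of the 7 were at least 1.5-fold lower, since Hopx lies close to that fold. Of all genes, 5.54% were lower by at least that fold after rescaling to a median log2 ratio of 0. This share was 5.54% with upper-quartile scaling and 5.87% when scaled without the 50 most abundant genes. The share with the most abundant transcript only is not given here. At a fold of 2 the count of the 7 genes was 0. Without the 50 most abundant genes, 759 of all genes were at least 1.5-fold lower and 1006 higher, against 599 and 1217 as deposited. The median of shared endothelial markers turned to -0.01 under that scaling, and that of lymphatic markers to 0.01 with the most abundant transcript only. The scaling without the 50 most abundant genes lowers every KO value. Of the 3 lymphatic markers above the minimum, only Mmrn1 has more than 1 record. No paired analysis was possible because each genotype has 1 library. The counting intervals of the 7 genes leave out variation between mice, pools and preparations, which 1 library per genotype does not measure.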
